A study of Mus musculus with 175 samples.

Results

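The RUNX family of transcription factors and their common partner CBF beta are described here in single blood progenitors of the mouse fetal liver. The members are the genes Runx1, Runx2, Runx3 and Cbfb, chosen by symbol, and they are 4 of the 49585 mouse genes counted. All 4 were found in the count table under 1 identifier each (ENSMUSG00000022952.16, ENSMUSG00000039153.16, ENSMUSG00000070691.10 and ENSMUSG00000031885.14).

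RUNX proteins bind DNA through the Runt domain, and they do so as a pair with CBF beta, which does not touch DNA itself and raises the affinity of its partner. RUNX1 is needed for the first blood stem cells and for the maturation of megakaryocytes, RUNX2 is the master regulator of bone-forming cells, and RUNX3 is best known from cytotoxic T cells, natural killer cells and sensory neurons. Each of the 3 Runx genes has a distal promoter, P1, and a proximal one, P2, which give proteins that differ at the amino terminus.

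Single cells were sorted from fetal livers at 14.5 days post fertilization and sequenced by a modified Smart-Seq2 protocol, which copies full-length cDNA. The embryos came from a C57BL/6 by ICR cross and carried 1 Runx1 reporter allele, in which GFP reports the distal promoter and human CD4 (hCD4) the proximal one (P1-GFP::P2-hCD4/+ in the preparation protocol and the article, whereas the genotype field of the labels has P2 in both places). Cells were Lin- Kit+ and CD41- CD150+, and CD34 parted the megakaryocyte-erythroid progenitors (MEPs, CD34-) from the common myeloid progenitors (CMPs, CD34+), each then taken as P2-hCD4 negative or positive. The sequencing was done to look for surface proteins whose RNA goes with the proximal reporter, for use in sorting such cells from mice that lack it.

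Cells without and with the reporter are called P2- and P2+. The CMPs carry the labels low and high, which were read as P2- and P2+. After filters on read number, unmapped reads and spike-in content, 56 P2- and 47 P2+ MEPs and 27 P2- and 42 P2+ CMPs remained of 175, with 295064 to 1540631 reads on mouse genes per cell. Cd34 stood at 0.0327 and 13.0 CPM (reads per 1000000 reads on mouse genes) in P2- and P2+ MEPs and at 274.3 and 541 CPM in P2- and P2+ CMPs, and Kit between 259.3 and 369.4 CPM in all of them. Other genes of the gate followed it less closely. Slamf1, which encodes CD150, had reads in only 9 of 56 P2- MEPs (8.23 CPM). Its level in the P2+ MEPs was 97.2 CPM, while CMPs had 37.2 CPM (P2-) and 69.3 CPM (P2+). Itga2b, which encodes CD41, was read at 32.0 to 103 CPM in populations sorted as CD41-. Ly6a, which encodes SCA1, had reads in 3 of 42 P2+ CMPs (5.58 CPM) and in no other population. Fcgr3 and Fcgr2b, which encode CD16 and CD32, had no reads in P2- MEPs and at most 16.4 CPM elsewhere. All livers, of 2 litters, were pooled, so each population is 1 sample, cells are not replicates, and no p-value is given. A fold difference is a difference between these pools of cells. One of the P2- CMPs carries a subtype label of MEP and was kept.

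The sort was on a reporter of the P2 promoter of Runx1, so the Runx1 levels below are a description and not a finding independent of the sort. Reads were counted per gene, so transcripts from P1 and P2 could not be told apart, and neither reporter sequence was among the counted features.

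On GRCm38, in the later GENCODE vM21 annotation, Runx1 lies on chr16:92601466-92826149 on the minus strand, with 5 coding transcripts. Runx2 lies on chr17:44495987-44814797 on the minus strand, Runx3 on chr4:135120652-135177990 and Cbfb on chr8:105170674-105217989, both on the plus strand. Counting ignored strand, and reads of overlapping antisense genes cannot be told apart from those of a member. Such overlap covered 5.87% of the exon bases of Runx2 (519 bases, with Runx2os1) and 0.881% of those of Runx1 (106 bases, with Gm26626), and none of those of Runx3 or Cbfb.

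The RefSeq promoter table on GRCm38.p6 held 6 windows of the members, each from 250 bases before to 50 after a transcription start. The sequence that is upstream of the proximal start of Runx1 is shown because this is the promoter whose reporter defined the sort. It lies on chr16:92697330-92697579, minus strand, within an intron of the transcripts that start at the distal promoter:
Runx1 proximal: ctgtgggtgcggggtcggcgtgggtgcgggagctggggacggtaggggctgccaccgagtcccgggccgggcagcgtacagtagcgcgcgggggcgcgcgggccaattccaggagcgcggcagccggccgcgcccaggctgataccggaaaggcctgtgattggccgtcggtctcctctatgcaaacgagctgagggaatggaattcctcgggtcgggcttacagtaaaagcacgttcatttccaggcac

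The 300-base window of this promoter had a GC content of 69.0% and 35 CpG dinucleotides, against 45.0% and 2 in the distal window of Runx1. The median GC content of all 32851 windows was 52.7%. Neither of the motifs ACCACA (the RUNX core, both strands) and AGATAA (the GATA core, both strands) was found in the proximal window. Of all windows, 16.8% held the first at least once and 11.2% the second.

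The distal window of Runx1 and the windows of Runx2 and distal Runx3 held 2 copies of ACCACA next to each other. The 30 bases around them are shown for what the family shares, with the longest run of letters common to all 3 windows in capitals:
Runx1 distal: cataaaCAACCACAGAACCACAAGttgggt
Runx2: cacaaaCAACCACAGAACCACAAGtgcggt
Runx3 distal: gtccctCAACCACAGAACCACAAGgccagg

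These lie on chr16:92826025-92826054 (minus strand), chr17:44814583-44814612 (minus strand) and chr4:135120503-135120532 (plus strand). The capitals begin 26 bases after the start in Runx1, 21 bases after it in Runx2 and 136 bases before it in Runx3. ACCACA occurred at least 2 times in 1.81% of all windows, and the 18 letters in capitals, taken from the member sequences themselves, in 4 of 32851 windows, of which 3 belong to the Runx genes. The windows of proximal Runx1, proximal Runx3 and Cbfb held no ACCACA. A match is a string of letters and not a shown binding site.

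Runx1 was read in all populations and was highest in P2+ CMPs. It was at 23.4 CPM in P2- MEPs (21.7 to 25.1, an exact 95% Poisson interval, which like those of the ratios covers the counting of reads only), and at 57.0 CPM in their P2+ counterparts (54.4 to 59.7). CMPs without the reporter stood at 71.5 CPM (67.7 to 75.5) and CMPs with it at 156 CPM (152 to 159.8). The pooled levels thus differed beyond counting error between all neighbours in this order.

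Cell by cell the order was less sharp. In P2- MEPs the lowest, median and highest values were 0, 17.1 and 81.7 CPM. The P2+ MEPs had 0, 56.6 and 273.2 CPM, and for P2- CMPs these were 0, 77.2 and 165 CPM. P2+ CMPs, at 4.41, 133 and 629 CPM, were the population in which every cell had a Runx1 read. Intervals of cell medians and of shares of cells below reflect the number and spread of the cells of 1 pool, and say nothing of the spread between embryos. The intervals of the cell medians overlapped between P2+ MEPs (33.3 to 61.5 CPM) and P2- CMPs (27.8 to 101.4 CPM) and between the latter and P2+ CMPs (97.7 to 166 CPM), and were apart between P2- MEPs (8.36 to 23.6 CPM) and P2+ MEPs.

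In MEPs the log2 ratio of Runx1, P2+ over P2-, was 1.29 (1.16 to 1.41, exact conditional binomial interval), or 2.44-fold, and 0.67 per spike-in read, a scale on which the median of all genes in MEPs was -0.55. Of the 47 P2+ MEPs, 9 lay above the highest P2- MEP and 11 below the P2- median, so that the populations overlapped. In CMPs the ratio was 1.12 (1.03 to 1.21), or 2.18-fold, with 15 of 42 P2+ CMPs above the highest P2- CMP and 9 below the P2- median. A single P2+ CMP gave 787 of the 5658 Runx1 reads (13.9%), and without it the ratio was 0.96, under 2-fold. Across all genes with at least 10 summed reads, 20.4% were at least 2-fold higher in P2+ MEPs and 17.4% in P2+ CMPs, and 17.4% and 15.9% of genes had a higher ratio than Runx1. A ratio of this size was therefore common in both comparisons.

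**Figure D1:**
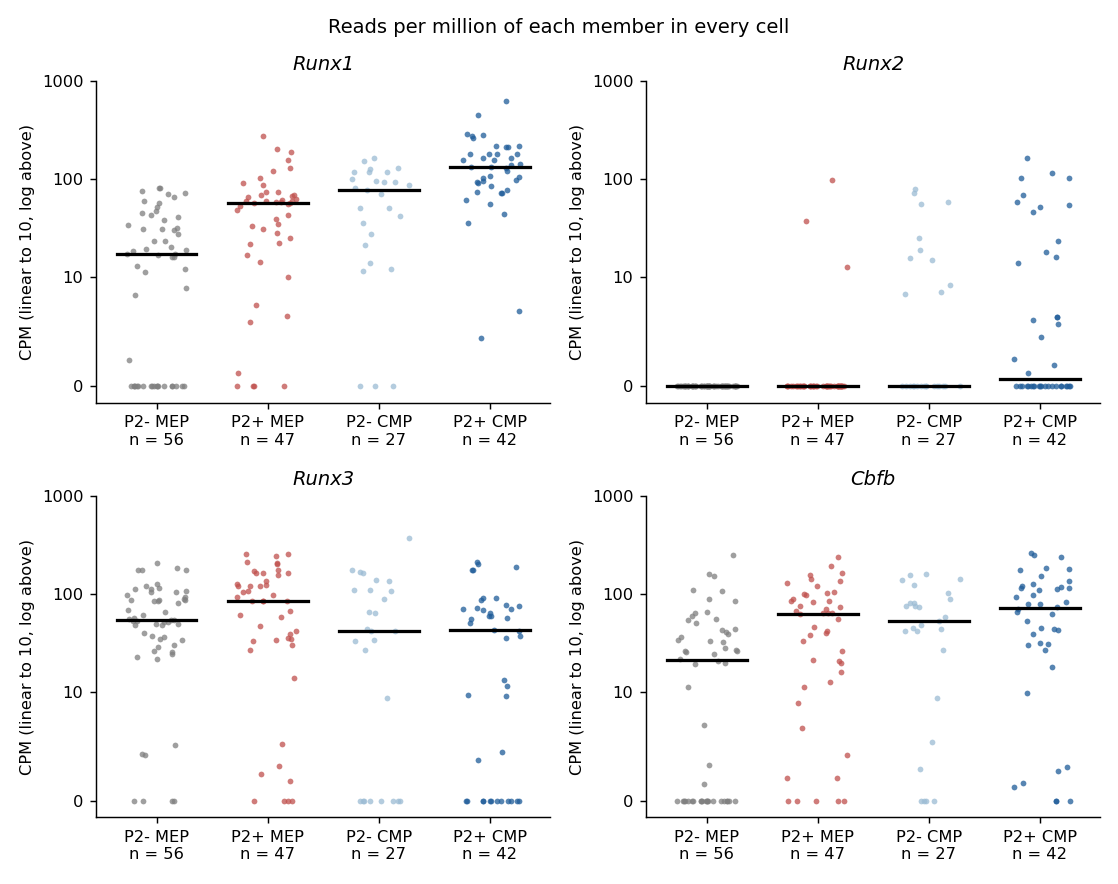
CPM (linear to 10 and logarithmic above) of Runx1, Runx2, Runx3 and Cbfb in every cell of the 4 populations, with 1 point per cell and a bar at the median. Runx1 medians go from 17.1 CPM in P2- MEPs to 133 CPM in P2+ CMPs with overlap between populations, while Runx2 has no read in any P2- MEP and reads in 3 P2+ MEPs.

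Runx2, which is the bone regulator of the family, was the member with the fewest reads and the one that most cells lacked. Over all P2- MEPs it had 0 reads, and P2+ MEPs held 119 (3.77 CPM). The P2- and P2+ CMPs stood at 15.9 and 20.1 CPM, the latter from 729 reads. A count of 0 allows up to 0.0980 CPM in P2- MEPs at a floor of 3 reads, and up to 0.121 CPM by the Poisson interval. The lowest and median P2+ MEP were at 0 CPM and the highest at 97.0 CPM. P2- CMPs ran from 0 through a median of 0 to 79.5 CPM, whereas the lowest, median and highest P2+ CMP were at 0, 0.629 and 166 CPM. The intervals of both CMP medians began at 0 and overlapped.

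With every cell thinned to 100000 reads, Runx2 was read in 0 of 56 P2- MEPs, which allows a share of up to 5.36% at 3 counts and up to 6.38% by the Clopper-Pearson interval, and in 3 of the 47 with the reporter (6.38%, 1.34 to 17.5%). The intervals of these shares overlapped. Among CMPs, 9 of 27 P2- cells (33.3%, 16.5 to 54.0%) and 16 of 42 P2+ cells (38.1%, 23.6 to 54.4%) had a read. Runx2 reads were thus mostly in CMPs, and the intervals of the P2- and P2+ shares there overlapped. Without thinning the cells were 0, 3, 11 and 21. In CMPs the log2 ratio was 0.33 (0.13 to 0.53), and 0.11 without the P2+ cell of highest CPM. In MEPs it was at least 5.26, computed against 3 reads over all P2- MEPs, and at least 3.12 without the top cell.

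All Runx2 reads of P2+ MEPs lay in 3 cells, with 93, 20 and 6 reads. The cell with 93 reads (97.0 CPM) also held Runx1 at 61.5, Cbfb at 63.6 and Runx3 at 5.21 CPM, together with Cd34 at 106 and Spi1 at 48.0 CPM. The cell with 20 reads held Runx3 at 163 CPM and no Cd34 read, and the one with 6 reads held Cd34 at 21.0 CPM. Cd34, the antigen that parted MEPs from CMPs, was thus read in 2 of these 3 cells and in 7 of all 47 P2+ MEPs. Each of the 3 had reads of genes from different lineages, with Klf1, an erythroid regulator, at 165 to 235.6 CPM, Fli1 at 37.4 to 59.4 CPM and Mpo, an enzyme of neutrophil granules, at 43.8 to 313.5 CPM. They held 59.9% of the 401 Mpo reads of all P2+ MEPs, but 4.85% of the Klf1 and 4.19% of the Fli1 reads, genes that were read in 40 and 34 of the 47 cells. None of the 3 had a read of Pf4 or Gp9, markers of megakaryocytes, although Gp9 was read in 25 of the 47 cells. Of the 3, only the cell with 93 Runx2 reads had a Spi1 read. Markers of bone, cartilage and stroma were low in every population, with 3.93 to 19.0 CPM summed over 6 genes and Acan at 0 in all populations. Nearly all of the sum was Col1a2, a collagen I chain, which was read in 8 P2- MEPs (11.6 CPM) and 12 with the reporter (18.9 CPM), and at 3.71 and 3.91 CPM in CMPs. Whether Cd34-bearing cells account for the Runx2 reads in MEPs was not tested.

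**Figure D2:**
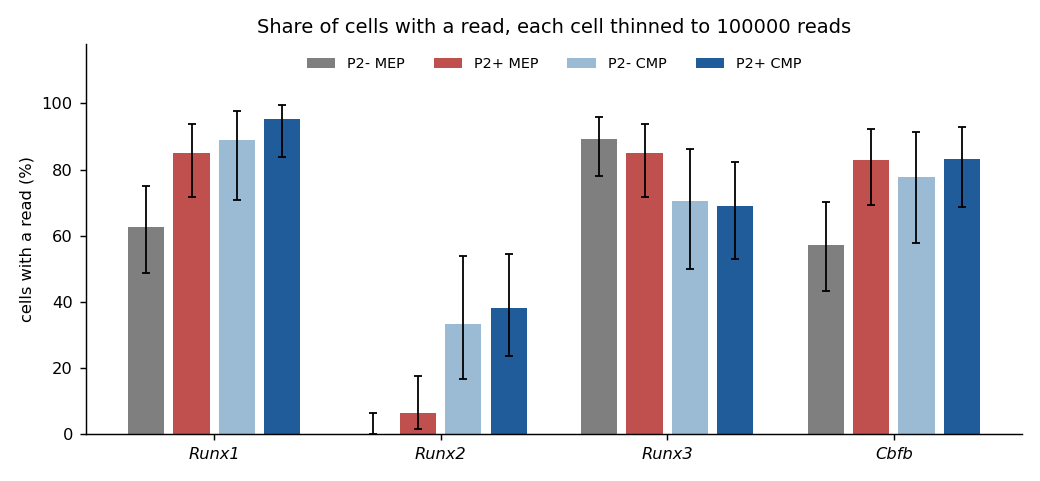
Percent of cells with at least 1 read of each member after thinning every cell to 100000 reads on mouse genes, with exact Clopper-Pearson 95% intervals for the number of cells. Runx1 goes from 62.5% of P2- MEPs to 95.2% of P2+ CMPs, Runx2 from 0% to 38.1% and Runx3 from 89.3% to 69.0%.

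Runx3 was the member whose P2+ to P2- difference had opposite signs in MEPs and CMPs. MEPs had it at 68.0 CPM without the reporter (65.1 to 71.0) and at 96.0 CPM with it (92.6 to 99.5). CMPs had it at 69.3 CPM without the reporter (65.6 to 73.2) and at 51.6 CPM with it (49.3 to 54.0). P2- MEPs and P2- CMPs, neighbours in this order, did not differ beyond counting error. P2+ MEPs were highest and P2+ CMPs lowest.

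Single P2- MEPs ran from 0 through a median of 53.9 to 207 CPM, and the P2+ ones from 0 through 85.2 to 257.2 CPM. For CMPs the P2- cells ran from 0 through 41.8 to 374.6 CPM and the P2+ cells from 0 through 42.5 to 211.3 CPM. The 95% intervals of the 4 medians all overlapped, and the CMP medians were nearly equal although the pooled levels differed. The log2 ratio was 0.50 (0.42 to 0.58) in MEPs, or 1.41-fold, and -0.43 (-0.53 to -0.32) in CMPs, or 1.34-fold higher in P2- CMPs. Leaving out 1 P2- CMP, the one with the highest value and 17.1% of the reads there, gave a CMP ratio of -0.20. Per spike-in read the MEP ratio turned to -0.12, on a scale on which the median of all genes was -0.55. Neither difference reached 2-fold. In shares of thinned cells, Runx3 was read in 89.3% of P2- MEPs (78.1 to 96.0%) and 85.1% of the P2+ ones, and in 70.4% of CMPs without and 69.0% of those with the reporter (52.9 to 82.4%), with overlapping intervals for P2- and P2+ cells in each compartment. Markers of T cells, NK cells and innate lymphoid cells, in which RUNX3 is well known, summed to 0.948 to 38.3 CPM over 7 genes, and Cd3e, Cd3g and Il7r had 0 reads in all populations. Most of the sum was Nkg7, a cytotoxic granule protein, at 0.915, 12.7, 17.6 and 36.4 CPM in P2- and P2+ MEPs and P2- and P2+ CMPs, and Thy1 and Klrb1c had reads in CMPs but not in MEPs. Tcf7 had reads in MEPs (1 in P2- and 29 in P2+ cells) but not in CMPs.

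Cbfb, the gene of the non-DNA-binding partner, had its lowest level in P2- MEPs. It was at 29.5 CPM there (27.6 to 31.5) and at 59.4 CPM in MEPs with the reporter (56.7 to 62.1). The P2- and P2+ CMPs stood at 66.0 CPM (62.3 to 69.8) and 84.5 CPM (81.5 to 87.5). The lowest, median and highest cells were at 0, 21.3 and 248.5 CPM in P2- MEPs and at 0, 62.4 and 239.8 CPM in P2+ MEPs. They were at 0, 53.4 and 159 CPM in P2- CMPs and at 0, 72.5 and 262.6 CPM in P2+ CMPs. The intervals of the cell medians overlapped between all neighbours, including P2- MEPs (0 to 32.5 CPM) and P2+ MEPs (26.2 to 74.9 CPM).

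The log2 ratio of Cbfb was 1.01 (0.89 to 1.12) in MEPs and 0.36 (0.26 to 0.45) in CMPs. The MEP value stood at the 2-fold line and fell under it with TMM scaling (0.96), with equal weight for every cell (0.93), without the P2+ cell of highest CPM (0.90) and per spike-in read (0.39). Cbfb was read in 57.1% of thinned P2- MEPs (43.2 to 70.3%) against 83.0% of the P2+ ones (69.2 to 92.4%), and in 77.8% and 83.3% of P2- and P2+ CMPs, so that P2- MEPs held the lowest share.

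Over the family, 3 of 4 members (Runx1, Runx2 and Cbfb) were at least 2-fold higher in P2+ MEPs, where 20.4% of all tested genes were (33.0% in either direction), and 1 of 4 (Runx1) in P2+ CMPs, where 17.4% were (32.1% in either direction). No member was 2-fold lower, against 12.5% of genes in MEPs and 14.7% in CMPs. Runx2 passed the minimum of 10 reads in MEPs only through the P2+ cells. With 4 genes, 1 of which belongs to the sort, these counts are a description.

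**Figure D3:**
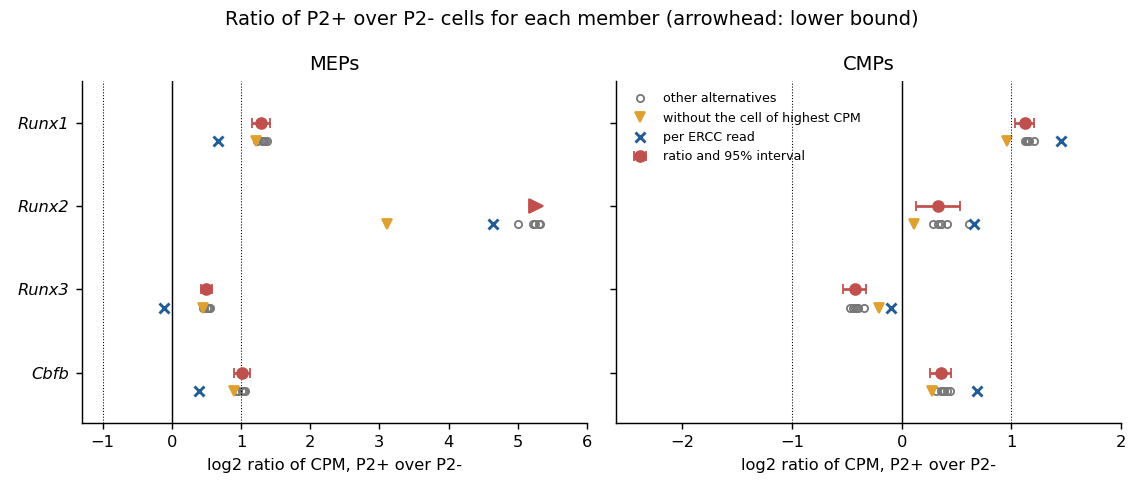
The log2 ratio of CPM, P2+ over P2-, of each member in MEPs and CMPs, with exact 95% intervals for counting error (filled circles; the arrowhead is a lower bound against 3 reads) and the same ratio under each other processing below it; dotted lines mark 2-fold. Runx3 is at 0.50 in MEPs and -0.43 in CMPs, and its MEP ratio turns to -0.12 per spike-in (ERCC) read.

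Levels of different genes were compared per length, as CPM per 1000 bases (RPKM) of the union of the exons. By this measure Runx3 was the highest Runx gene in P2- MEPs (13.6 RPKM, with Runx1 at 1.94), P2+ MEPs (19.2, with Runx1 at 4.74) and P2- CMPs (13.9, with Runx1 at 5.95), and Runx1 was the highest in P2+ CMPs (12.9, with Runx3 at 10.3). Runx2 stayed at 0 and 0.426 RPKM in P2- and P2+ MEPs and at 1.802 and 2.27 RPKM in P2- and P2+ CMPs. The change of rank in P2+ CMPs was also seen with the longest coding transcript as the length, where Runx1 was at 26.6 and Runx3 at 13.3 RPKM.

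Runx1 made up 12.5% and 19.5% of the summed Runx level in P2- and P2+ MEPs and 27.5% and 50.7% in P2- and P2+ CMPs. Runx3 made up 87.5%, 78.8%, 64.1% and 40.4% in the same order. With the longest coding transcript the shares of Runx1 were 18.5%, 27.8%, 37.5% and 61.8%. The share of Runx1 therefore increased in the same order on both lengths. The summed level of the 3 Runx genes was 15.5 RPKM in P2- MEPs and 21.6 to 25.5 RPKM in the others. Relative to Cbfb (8.49, 17.1, 19.0 and 24.3 RPKM) this sum was 1.83, 1.43, 1.14 and 1.05, so that the RNA of the DNA-binding partners exceeded that of Cbfb most in P2- MEPs. With the longest coding transcript the ratios were 2.10, 1.70, 1.42 and 1.47.

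**Figure D4:**
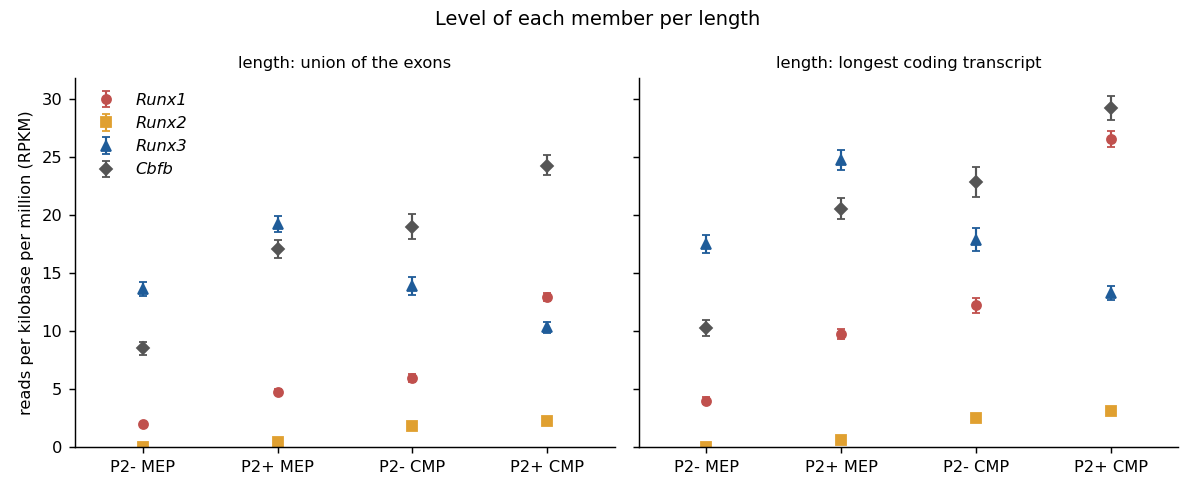
Level of each member per length (RPKM, with exact Poisson 95% intervals for counting error) in the 4 populations, with the union of the exons (left) or the longest coding transcript (right) as the length. Runx3 lies above Runx1 in 3 populations and below it in P2+ CMPs, at 12.9 RPKM for Runx1 and 10.3 for Runx3 on the left.

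Single cells commonly held reads of more than 1 Runx gene. After thinning, reads of both Runx1 and Runx3 were found in 31 of 56 P2- and 34 of 47 P2+ MEPs, and in 18 of 27 P2- and 28 of 42 P2+ CMPs. Cells with Runx3 as the single Runx gene numbered 19 in P2- MEPs, 5 in P2+ MEPs and 1 in each CMP population, and those with Runx1 alone 4, 6, 1 and 9. Cells with Runx3 alone were thus mostly P2- MEPs, the population with the most cells. There Runx1 was read in 62.5% of thinned cells and Runx3 in 89.3%. In the other populations Runx1 was read in 85.1 to 95.2%. Whether such cells were more than these separate shares give was not tested.

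All 3 Runx genes were read together in 0 P2- and 2 P2+ MEPs and in 4 P2- and 13 P2+ CMPs, and no cell had Runx2 alone. Every CMP with Runx2 reads also had Runx1 reads (9 of 9 P2- and 16 of 16 P2+ CMPs), but Runx1 was read in 88.9% and 95.2% of all cells of these populations. Not a single Runx read was found in 2, 1, 2 and 1 cells, which at this depth does not show absence. Reads of a Runx gene and of Cbfb occurred together in 31, 38, 19 and 34 cells. By read number, without correction for length, Runx1 exceeded Runx3 in 10 of 56 P2- MEPs and in 34 of 42 P2+ CMPs. Within a population the CPM of 2 members were only weakly related over cells, with Spearman's rho from -0.33 (Runx2 and Runx3, 27 P2- CMPs) to 0.26, which in counts this sparse is no finding.

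Over all 172 cells, among 8024 genes read in at least 25% of them, the 5 genes most like Runx1 by Pearson's r of log2(CPM + 1) included Bin2 (0.45), Bcl2l1 (0.44), which encodes the survival factor BCL-XL, Limd2 (0.44) and Ncf4 (0.44), a subunit of the phagocyte NADPH oxidase. The least like were Cpox (-0.47), an enzyme of heme synthesis, Ermap (-0.45), a red cell membrane protein, and Klf1 (-0.45). These values describe cells of 4 pooled populations that also differ in depth. Within single populations r for Bin2 was 0.26 and 0.24 in P2- and P2+ MEPs and 0.06 and -0.02 in P2- and P2+ CMPs, whereas r for Ncf4 was 0.21 in P2+ MEPs and 0.26 and 0.45 in P2- and P2+ CMPs. Cbfb ranked 946 of 8024 (0.12), with 0.28 within P2+ MEPs and -0.25 within each CMP population, and Runx3 ranked 5646 (-0.08).

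The lists of genes that work with or under RUNX1 were counted in the same way as the members. A listed gene with 0 reads in 1 population passed the read minimum only through the other, where it had to be the higher one, and such genes made up 32.2% of all genes called higher in P2+ MEPs and 45.2% of those in P2+ CMPs.

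The partners of RUNX1 in DNA binding include the GATA, ETS and SCL/TAL1 factors. Of the 13 listed genes, all had at least 10 summed reads in both comparisons. In MEPs 5 were at least 2-fold higher in P2+ cells and 0 lower (20.4% and 12.5% of all genes), with a median log2 ratio of 0.56 (0.06 over all genes). Gata2, a factor of stem and early progenitor cells, was at 35.2 and 212.1 CPM in P2- and P2+ MEPs (log2 ratio 2.59), Fli1, an ETS factor of megakaryocytes, at 7.29 and 79.3 CPM (3.44), and Spi1, which encodes PU.1, at 6.53 and 27.97 CPM (2.10). The other two, Erg and Ets1, were at 0 in P2- MEPs and passed only through 41 reads each in 2 P2+ MEPs, a ratio of at least 3.73. For Erg 40 of these reads lay in 1 cell, and for Ets1 27.

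In CMPs the same list had 1 gene at least 2-fold higher in P2+ cells (Ets1, 0.65 and 4.62 CPM) and 2 lower, against 17.4% and 14.7% of all genes, with a median of -0.62. The 12 P2- reads of Ets1 lay in 1 cell, and its 168 P2+ reads in 7 of 42 cells. Gata1, the main erythroid GATA factor, was at 103 CPM in P2- and 43.6 CPM in P2+ CMPs (-1.24), and Cebpa, at 1.47 and 0.33 CPM, rested on few reads. Runx1 was higher in P2+ cells of both kinds, whereas Gata2 had a ratio of 2.59 in MEPs and -0.77 in CMPs.

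RUNX proteins silence genes through corepressors of the Groucho, ETO and SIN3A type. Of 14 listed, 13 were measured in MEPs, with 2 at least 2-fold higher in P2+ cells and 0 lower, and 14 in CMPs, with 1 higher and 2 lower. These are 15.4% and 0% of the list in MEPs, against 20.4% and 12.5% of all genes, and 7.14% and 14.3% in CMPs, against 17.4% and 14.7%. The medians were 0.34 and 0.09. Tle4, a Groucho-type corepressor, was at 10.7 and 26.2 CPM in P2- and P2+ MEPs (1.30), and Tle1, of the same family, at 16.0 and 4.51 CPM in P2- and P2+ CMPs (-1.82). Runx1t1, the partner of RUNX1 in the leukemic ETO fusion, was at 0 in P2- MEPs and at 1.52 CPM in P2+ MEPs, with 46 of 48 reads in 1 cell. It was also the gene higher in P2+ CMPs, where 78 of 107 reads lay in 1 cell. Tle2, which like Tle1 was lower in P2+ CMPs, had all 75 of its P2- reads in 1 cell. Cbfa2t3, a relative of Runx1t1, was at 193 and 290.9 CPM in MEPs and at 220.3 and 150.5 CPM in CMPs.

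Of the 16 coactivators and modifying enzymes, all were measured. In MEPs 2 were at least 2-fold higher in P2+ cells, namely Hipk1 (63.1 and 131 CPM, 1.06) and Hipk2 (38.1 and 76.6 CPM, 1.01), kinases of the family that phosphorylates RUNX1, and 0 were lower. The share higher, 12.5%, was below the 20.4% of all genes. In CMPs 0 of 16 passed 2-fold in either direction, against 32.1% of all genes. The medians were 0.10 and -0.11.

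RUNX1 is known to bind and switch on genes of megakaryocytes and platelets, of which 14 were listed. Of 12 measured in MEPs, 8 were at least 2-fold higher in P2+ cells and 1 lower (20.4% and 12.5% of all genes), with a median of 1.56. Of the 8, Pf4, Alox12 and Thbs1 had 0 reads in P2- MEPs and passed only through the P2+ ones, Pf4 with 54 reads and Alox12 with 18 reads in 1 cell each. The gene that was lower, Tubb1, had 37 reads without the reporter and 0 with it. Itga2b, which encodes CD41, was at 33.6 and 103 CPM in P2- and P2+ MEPs (1.62), and Rab27b, which is needed for platelet granules, at 3.76 and 31.9 CPM (3.09). Thbs1 was at 0 and 109 CPM, in 8 cells (at least 10.1). In CMPs 4 of 13 were higher and 1 lower (17.4% and 14.7% of all genes), with a median of 0.27, and the log2 ratio of Itga2b was 0.29. Of the 4, Alox12 had 0 reads in P2- CMPs and Tubb1 had 31 of its 60 P2+ reads in 1 cell, and the gene that was lower, Selp, had all 43 of its P2- reads in 1 cell. Pf4 and Thbs1 were each read in 5 of 42 P2+ CMPs. In P2- CMPs they had 17 and 14 reads, in 2 cells each. General markers of megakaryocytes moved alongside, with 33.7 CPM summed over 5 genes in P2- MEPs and 206 in P2+ MEPs, against 85.8 and 92.0 in CMPs, and Pf4, Gp9 and Gp1bb were at 0 in P2- MEPs. Itga2b and Pf4 are in both lists, and without them the other 3 markers summed to 0.0327 and 100.8 CPM in P2- and P2+ MEPs and to 52.9 and 45.1 CPM in CMPs. Their part in the list was not tested.

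Of 11 granulocyte and monocyte targets, 6 were measured in MEPs, where 4 were at least 2-fold higher in P2+ cells and 0 lower, and 10 in CMPs, with 2 higher and 1 lower. Over all genes 20.4% were higher and 12.5% lower in MEPs, and 17.4% and 14.7% in CMPs. The medians were 1.82 and 0.64. Mpo, the enzyme of neutrophil granules, was at 2.22 and 12.7 CPM in MEPs (2.52) and at 216.5 and 431 CPM in CMPs (0.99), just under 2-fold. Csf2rb, the common beta chain of cytokine receptors, was at 0 and 8.84 CPM in MEPs and at 39.8 and 79.1 CPM in CMPs (0.99), and passed in MEPs only through the P2+ cells, with most of its reads (171) in 1 cell. Both genes called higher in P2+ CMPs rested mainly on 1 cell, Elane with 22 of 23 reads there and Csf1r with 53 of 77. General markers of granulocytes and monocytes summed to 9.41 and 38.0 CPM over 6 genes in P2- and P2+ MEPs and to 284.4 and 524 CPM in CMPs. Of these, 4 are also in the target list, and the other two summed to 7.19 and 25.2 CPM in MEPs and 67.0 and 90.7 CPM in CMPs. Their part in the list was not tested.

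Genes that RUNX1 is known to repress had 3 of 4 measured in MEPs, with 0 past 2-fold, and 4 in CMPs, with 1 in each direction, where 33.0% and 32.1% of all genes passed 2-fold. Klf1 was at 478 and 243.5 CPM in MEPs (-0.97) and at 87.4 and 4.59 CPM in CMPs (-4.25), and 138 of the 167 reads in P2+ CMPs came from 1 cell. Myh10, the non-muscle myosin that is switched off in megakaryocytes, was at 127 and 102 CPM in MEPs (-0.32), and Ankrd26 at 55.3 and 61.3 CPM (0.15). Mouse Cd4, which is distinct from the human CD4 of the reporter, was at 0 in 3 populations and at 6.24 CPM in P2+ CMPs, in 6 of 42 cells, the population through which alone it passed the minimum. Erythroid markers, Klf1 among them, summed to 1599 and 1194 CPM over 8 genes in P2- and P2+ MEPs and to 859 and 442 CPM in CMPs. Without Klf1 the sums were 1121 and 950.5 CPM in MEPs and 772 and 437.5 CPM in CMPs. Not all of them were lower in P2+ cells. Car1, a carbonic anhydrase of red cells, was at 111 and 299.7 CPM in MEPs (1.44) and at 55.6 and 0 CPM in CMPs, and Hbb-bt, a beta globin, at 9.51 and 9.79 CPM in MEPs (0.04). Hba-a1, an alpha globin, had 2 and 16 reads in CMPs (2.01).

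**Figure D5:**
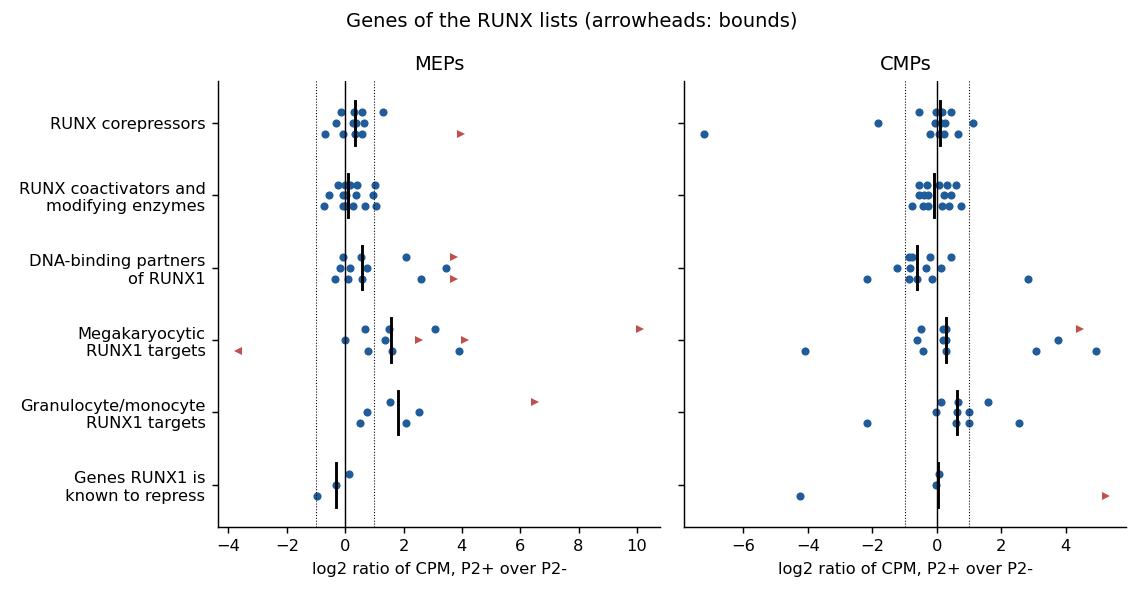
The log2 ratio of CPM, P2+ over P2-, of each measured gene of the RUNX lists in MEPs and CMPs, with 1 point per gene, red arrowheads for bounds where 1 population had 0 reads, a bar at the median of each list and dotted lines at 2-fold. The median of the megakaryocytic targets is 1.56 in MEPs and 0.27 in CMPs, and that of the DNA-binding partners 0.56 and -0.62.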

How the data were processed

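Libraries of single cells were made with ERCC spike-in RNA. The authors deposited a table of raw counts and a table of alignment statistics, where the unmapped share is given as a percent. Beforehand they trimmed reads with Trimmomatic 0.36, aligned them with STAR 2.4.2a to GRCm38 and counted exons, unstranded, with HTSeq 0.6.1p1. Tally rows that name no gene were left out of totals; of uniquely mapped reads 25.6% were ambiguous and 7.40% on no gene.

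Cells under 250000 reads, over 25% unmapped or over 15% ERCC reads were removed, as in the article (3 cells). Counts were summed per population and divided by summed mouse reads (CPM). A population at 0 was set to 3 reads. "Called" means past 2-fold among genes with at least 10 summed reads. Shares, and correlations with Runx1, used cells thinned to 100000 reads. Single cells were sorted into wells and no doublet caller was run. The 175 cell titles were distinct.

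RPKM used exon lengths of GENCODE vM21. The gene version of Runx1 there is later than the deposited one. Intervals (95%) were exact and computed in Python 3.11.15 with scipy 1.17.1. The ratio and its interval were run on simulated pooled Poisson counts with known folds. Since the interval assumes such counts and no cells were simulated, this checked the computation only. It cannot tell whether the intervals hold for reads that gather in single cells. No model was fitted, since each population is 1 sample. Named genes were the members, genes that overlap their exons, the 5 most and 3 least like Runx1, and those of 6 lists, beside markers of cell types and of the sort. One gene that this rule names is not reported here. Genes and lists were chosen with earlier results of these data known. Alternatives included size factors of DESeq2 1.42.0 (poscounts) and TMM factors of edgeR 4.0.16, applied to the deposited counts. Cells carry no plate label.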

Additional observations from a re-analysis of the deposited data

Results flagged for a closer look

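Runx3 was singled out because its ratio had opposite signs in the 2 compartments. The log2 ratio, P2+ over P2-, was 0.498 in MEPs and -0.426 in CMPs, each with a counting interval on its own side of 0. With 1 sample per population the difference was not tested. Per spike-in read both ratios were below 0 (-0.12 and -0.10), so that the opposite signs were not seen on that scale. A change of scale moved all genes of a comparison alike. Relative to the median of all genes, Runx3 stood at 0.44 in MEPs and -0.42 in CMPs, also per spike-in read.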

How the results depend on the processing

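Of 63 alternative member ratios, 50 stayed within the counting interval of the reported value, 12 left it and 1 changed sign. Per ERCC read, a scale that moved the median of all genes by -0.62 in MEPs and 0.33 in CMPs, the ratios were 0.67 and 1.45 for Runx1, at least 4.65 and 0.66 for Runx2, -0.12 (reversed) and -0.10 for Runx3, and 0.39 and 0.69 for Cbfb. The share of all genes 2-fold higher and lower in P2+ MEPs was then 14.9% and 24.8%, in place of 20.4% and 12.5%, and in CMPs 22.5% and 11.8%, in place of 17.4% and 14.7%. Without the cell of highest CPM the CMP ratios were 0.96 for Runx1, 0.11 for Runx2 and -0.20 for Runx3, and the MEP bound of Runx2 was 3.12. With equal weight per cell the CMP ratio of Runx2 was 0.61. The cause of these differences was not tested.

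The order of the populations kept all 3 neighbouring pairs under 30 of 36 alternatives and 2 pairs under the others: for Runx3 with DESeq2, TMM or ERCC scaling and without the highest cell, for Cbfb with equal weight, and for Runx2 without the 3 P2+ MEPs that hold its reads, a setting chosen after seeing the data, as was the coding length. Of 48 shares, 3 left their interval: Runx1 in P2+ MEPs at 50000 reads (70.2%) and in P2+ CMPs at 200000 reads or unthinned (100%). With at least 50 summed reads, of 12493 genes in MEPs 2089 were 2-fold higher, 889 lower and 2978 either (16.7%, 7.12% and 23.8%), and of 13081 in CMPs 1683, 1496 and 3179 (12.9%, 11.4% and 24.3%), so that the shares fell too. By Spearman's rho 3 of the 5 genes most like Runx1 were kept. No paired analysis was possible because each population is 1 sample and cell numbers are not shared between populations.

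Counts hold no molecular identifiers, so intervals of levels and ratios cover the counting of reads only. Intervals of medians and shares cover the cells of 1 pool, and spread between embryos is not measured.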
